A study of Marchantia polymorpha with 12 samples.

Results

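MpJAZ (Mp6g06230), MpCOI1 (Mp2g26590) and MpCYP94-like (Mp2g10330) were followed in a count table of the liverwort Marchantia polymorpha. The genes were picked by their identifiers, so they are 3 of 20574 genes in the table. The rule uses no measured value, but earlier results of these data were known when the genes were chosen. MpJAZ lies on chromosome 6, and MpCOI1 and MpCYP94-like lie on chromosome 2. All 3 genes passed the filter on low counts, as did 13726 genes in all.

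In jasmonate signalling, the F-box protein COI1 and a JAZ repressor together bind the hormone, and the JAZ protein is then marked for degradation, which releases transcription factors of the MYC type. JAZ proteins hold these factors back with the adaptor NINJA and the corepressor TOPLESS, and JAZ genes are themselves induced by the hormone in Arabidopsis. Marchantia uses dinor-OPDA, a precursor-like relative of jasmonate, where Arabidopsis uses jasmonoyl-isoleucine, and wounding is a classical trigger of the pathway. CYP94 enzymes of Arabidopsis oxidise jasmonoyl-isoleucine and so lower its activity. The substrate of the Marchantia CYP94-like protein is not given in the labels.

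The study compared Tak-1, a male wild-type strain, with a double mutant whose altered genes encode fatty acid desaturases, the enzymes that make the polyunsaturated fatty acids from which jasmonates are built. The sample titles call the mutant Mpfad3fad7 and the growth protocol calls it Mpdes6fad5. The labels do not say how its alleles were made or how many lines were used. Plants of both genotypes had been subcultured for 3 weeks on medium with 1% agar, and each library came from an independent pool of 6 to 8 plants. Apical fragments without gemma cups were taken, and the tissue label reads leaflets. Mock plants were compared with plants wounded with tweezers and frozen after 2 h, in 4 groups of 3 libraries: Tak-1 mock, Tak-1 wounded, mutant mock and mutant wounded. Of the wounded mutant libraries, 1 carries a number of its own, and the other two have a column name in common and are written A and B.

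Total counts ran from 19121900 to 30821817 per library, so that a floor of 3 counts stood for 0.0973 to 0.157 CPM. CPM are a gene's counts per 1000000 counts of its library, taken after TMM scaling for library composition except for this floor and for the tissue markers. The thallus marker MpRBCS, a Rubisco small subunit gene, was at 132 to 204 CPM. The sperm marker MpPRM had 0 to 1 counts per library, MpDUO1 was at 0.357 to 3.42 CPM and MpTUA5 at 0.175 to 0.628 CPM. Transcript levels of the desaturase genes named in the labels do not check the mutant genotype: MpFAD3 was at 205 to 237 CPM in Tak-1 and 235 to 255 CPM in the mutant, MpDES5 (synonym MpFAD7) at 123 to 180 and 137 to 206 CPM, MpDES6 at 30.4 to 84.7 and 42.7 to 106 CPM, and MpFAD5 at 202 to 373 and 295 to 378 CPM. Mutant mock library 1 stood as close to the Tak-1 mock libraries as to its own group: across genes, its log2 CPM correlated at 0.979 to 0.985 with the former and at 0.979 to 0.982 with the latter. For MpJAZ, MpCOI1 and MpCYP94-like, results that rest on it are given with and without it.

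Wounding raised MpJAZ and MpCYP94-like and lowered MpCOI1 in both genotypes. The rises of MpJAZ and MpCYP94-like were smaller in the mutant, whereas no difference between the genotypes was called for the fall of MpCOI1. In mock plants no difference between the genotypes was called for any of the 3 genes. In whole tissue, fewer cells of a type and less RNA per cell cannot be told apart. Groups in order of level ran for MpJAZ and for MpCYP94-like from both mock groups, which no test separated, through the wounded mutant to wounded Tak-1. For MpCOI1 the order was opposite, with both wounded groups, again not separated by a test, below both mock groups.

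**Figure D1:**
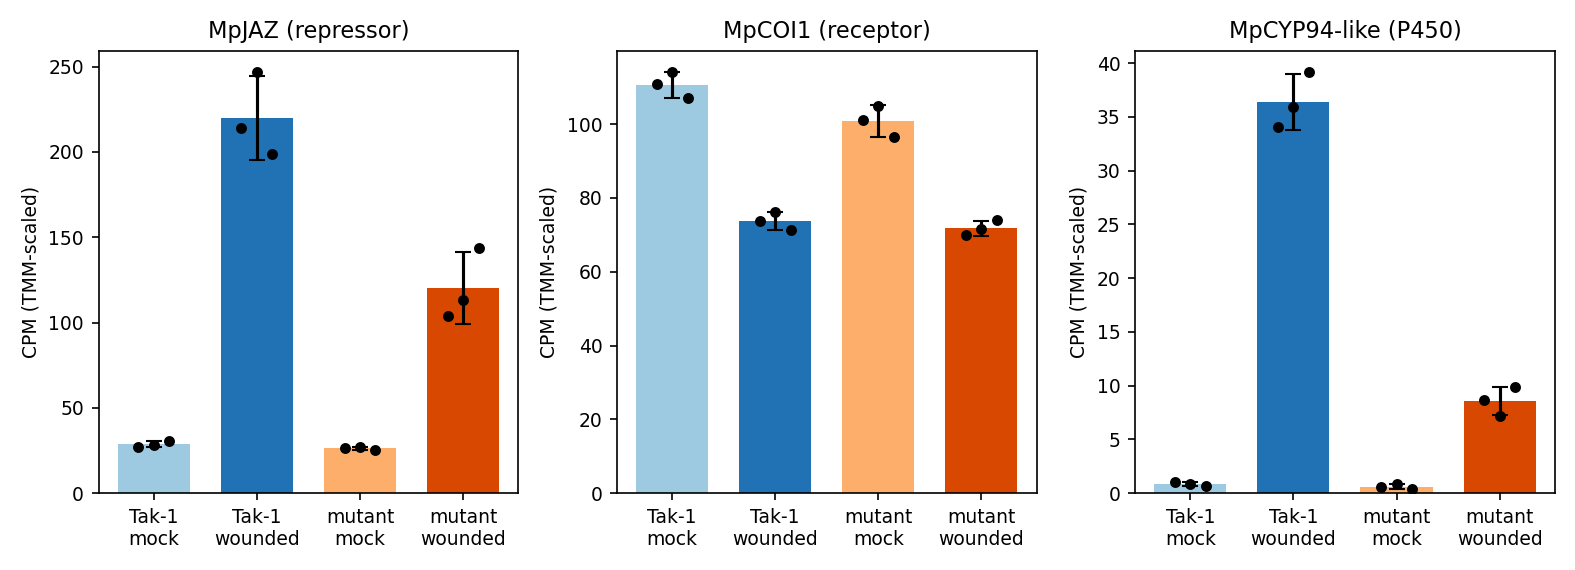
Level of MpJAZ, MpCOI1 and MpCYP94-like in CPM (linear axes from 0) in the 12 libraries, by group; points are libraries, bars are group means and error bars are SD (n = 3). The wounded Tak-1 libraries lie at 199 to 247 CPM for MpJAZ and 34.1 to 39.2 CPM for MpCYP94-like, above the wounded mutant libraries at 104 to 144 and 7.19 to 9.84 CPM.

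MpJAZ encodes the repressor that the hormone removes. Its level was 27.0, 28.3 and 30.6 CPM in Tak-1 mock libraries 1, 2 and 3, and 214, 247 and 199 CPM in wounded Tak-1 libraries 1, 2 and 3. Mutant mock libraries 1, 2 and 3 held 26.3, 26.9 and 25.5 CPM, and wounded mutant libraries 1, A and B held 104, 113 and 144 CPM. Every wounded library was above every mock library, and the highest wounded mutant library, B, was below the lowest wounded Tak-1 library. For this and later statements that groups did not overlap, the share of all tested genes that separate likewise was not counted.

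Mean levels of the groups were 28.6 ± 1.86 CPM for mock Tak-1, 220 ± 24.8 CPM for wounded Tak-1, 26.2 ± 0.702 CPM for the mock mutant and 120 ± 20.9 CPM for the wounded mutant (SD, n = 3). In Tak-1, MpJAZ rose 7.68-fold on wounding (95% interval 6.42 to 9.19, log2 fold change 2.94 ± 0.12 SE, adjusted p = 6.73e-10 by edgeR's quasi-likelihood test). In the mutant it rose 4.59-fold (3.85 to 5.48, log2 fold change 2.20 ± 0.12 SE, adjusted p = 1.09e-08), and without mutant mock library 1 the log2 fold change was also 2.20 (adjusted p = 1.07e-07). By size of the log2 fold change, MpJAZ was gene 533 from the top of 13726 in Tak-1 and gene 748 in the mutant, so that many other genes rose more in each. Wounding moved much of the transcriptome: 54.9% of tested genes were called in Tak-1, 30.0% of them being higher and 25.0% lower as shares of all tested genes, and 51.1% in the mutant, 28.6% higher and 22.6% lower. Both MpJAZ and MpCYP94-like were called higher, and MpCOI1 lower, in both genotypes.

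The wound response of MpJAZ in the mutant was 59.8% of that in Tak-1 as a ratio of fold changes (47.0 to 76.1%), a difference of -0.74 ± 0.16 SE on the log2 scale (adjusted p = 0.0257). For this difference 3.29% of tested genes were called, 2.59% in the negative and 0.692% in the positive direction, and 2 of the 3 genes described here, MpJAZ and MpCYP94-like, were called in the negative direction. For MpJAZ the adjusted p passed the threshold no more on leaving out Tak-1 mock library 1 (-0.70, adjusted p = 0.0720), mutant mock library 2 (-0.73, 0.0574), wounded mutant library 1 (-0.65, 0.0586) or wounded mutant library A (-0.70, 0.0654). Without mutant mock library 1 it was kept, at -0.74 with an adjusted p of 0.0401.

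Among wounded plants, where the mutant held 54.7% of the Tak-1 level of MpJAZ (46.4 to 64.5%), the log2 difference was -0.87 ± 0.11 SE (adjusted p = 0.000213). In this comparison 14.5% of tested genes were called, 9.51% lower and 5.03% higher in the mutant, and again MpJAZ and MpCYP94-like were called lower. Among mock plants the log2 difference of MpJAZ was -0.13 (95% interval -0.38 to 0.13, adjusted p = 0.629) and was not called. The mock libraries lay at 25.5 to 26.9 CPM in the mutant and 27.0 to 30.6 CPM in Tak-1, without overlap. Nothing is read from this gap. In mock, 4.52% of tested genes were called, 2.51% lower and 2.0% higher in the mutant, and 0 of the 3 genes by edgeR or by DESeq2, with 1 gene, MpCOI1, at an unadjusted p under 0.05 in edgeR. Without mutant mock library 1 the MpJAZ difference in mock was -0.13 (adjusted p = 0.715).

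MpCOI1 encodes the F-box protein of the receptor. Its level was 111, 114 and 107 CPM in Tak-1 mock libraries 1, 2 and 3, and 73.7, 76.3 and 71.3 CPM in the wounded Tak-1 libraries. Mutant mock libraries 1, 2 and 3 held 101, 105 and 96.5 CPM, and wounded mutant libraries 1, A and B held 69.9, 71.5 and 74.0 CPM. Every wounded library was below every mock library, the wounded genotypes overlapped, and the mock genotypes did not.

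MpCOI1 had the narrowest replicate spread of the 3 genes relative to its level in wounded plants, with coefficients of variation of 3.43% in Tak-1 and 2.91% in the mutant. Its means were 111 ± 3.6 CPM for mock Tak-1 and 73.8 ± 2.53 CPM for wounded Tak-1, and 101 ± 4.15 CPM in mutant mock and 71.8 ± 2.09 CPM in the wounded mutant (SD, n = 3). Wounding left 66.8% of the mock level in Tak-1 (61.6 to 72.4%, log2 fold change -0.58 ± 0.05 SE, adjusted p = 1.09e-06). In the mutant 71.2% was left (65.7 to 77.2%, log2 fold change -0.49 ± 0.05 SE, adjusted p = 6.87e-06), and without mutant mock library 1 the log2 fold change was also -0.49 (adjusted p = 3.99e-05).

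The fall of MpCOI1 differed between the genotypes by 0.09 on the log2 scale, with a 95% interval of -0.07 to 0.26 (adjusted p = 0.636), and by 0.10 without mutant mock library 1 (adjusted p = 0.672). As a ratio of fold changes this is 107% (95.1 to 120%), so that the data allow a response in the mutant between slightly stronger and somewhat weaker than in Tak-1. In mock plants the mutant was lower by a log2 difference of -0.13 (-0.25 to -0.02), with an unadjusted p of 0.0294 and an adjusted p of 0.204 in edgeR, which was not called. Without mutant mock library 1 this difference was -0.14 (adjusted p = 0.293). After wounding it was -0.04 (-0.16 to 0.08, adjusted p = 0.691), and with upper-quartile scaling 0.02 (adjusted p = 0.855).

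MpCYP94-like carries the symbol of the P450 family that oxidises jasmonoyl-isoleucine in Arabidopsis. It was near the detection limit in mock plants, with 23, 18 and 21 counts in Tak-1 mock libraries 1, 2 and 3, or 1.01, 0.86 and 0.656 CPM. Mutant mock libraries 1, 2 and 3 had 15, 17 and 9 counts, or 0.579, 0.898 and 0.374 CPM. The mock genotypes overlapped.

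Summed over a group, 62 counts in Tak-1 mock gave 0.819 CPM (95% exact Poisson interval 0.628 to 1.05), and 41 counts in mutant mock gave 0.595 CPM (0.427 to 0.808). After wounding the gene was at 34.1, 35.9 and 39.2 CPM in Tak-1 libraries 1, 2 and 3, and at 8.71, 7.19 and 9.84 CPM in mutant libraries 1, A and B. The wounded groups were far apart, and each was above all mock libraries.

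Group means of MpCYP94-like were 0.842 ± 0.178 CPM for mock Tak-1, 36.4 ± 2.6 CPM for wounded Tak-1, 0.617 ± 0.264 CPM in mutant mock and 8.58 ± 1.33 CPM in the wounded mutant (SD, n = 3). In Tak-1 wounding raised it 43.8-fold (31.6 to 60.6, log2 fold change 5.45 ± 0.22 SE, adjusted p = 5.78e-10). In the mutant it rose 14.2-fold (log2 fold change 3.83 ± 0.23 SE, 95% interval 3.33 to 4.34 on the log2 scale, adjusted p = 3.08e-08), and without mutant mock library 1 the log2 fold change was 3.81 (adjusted p = 3.11e-07). It was gene 137 from the top of the 13726 tested in Tak-1 and gene 249 in the mutant.

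The wound response of MpCYP94-like in the mutant was 32.6% of that in Tak-1 (19.2 to 55.1%), a log2 difference of -1.62 ± 0.35 SE (adjusted p = 0.0257), which placed it 166 from the lowest of all tested genes. For MpCYP94-like the adjusted p rose above the threshold on leaving out Tak-1 mock library 3 (-1.44, adjusted p = 0.0765), mutant mock library 1 (-1.65, 0.0521), mutant mock library 2 (-1.30, 0.0905) or wounded mutant library 1 (-1.63, 0.0545). The size of the difference between wounded plants does not rest on the low mock counts, though its SE and p come from the fit over all 12 libraries. After wounding the mutant held 23.7% of the Tak-1 level (18.4 to 30.5%), a log2 difference of -2.08 ± 0.17 SE (adjusted p = 9.29e-06), 116 from the lowest. An edgeR fit to the wounded groups alone gave -2.08 as well (adjusted p = 2.35e-05). In mock plants the log2 difference was -0.46 (-1.11 to 0.19, adjusted p = 0.46), and without mutant mock library 1 it was -0.43 (adjusted p = 0.616).

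**Figure D2:**
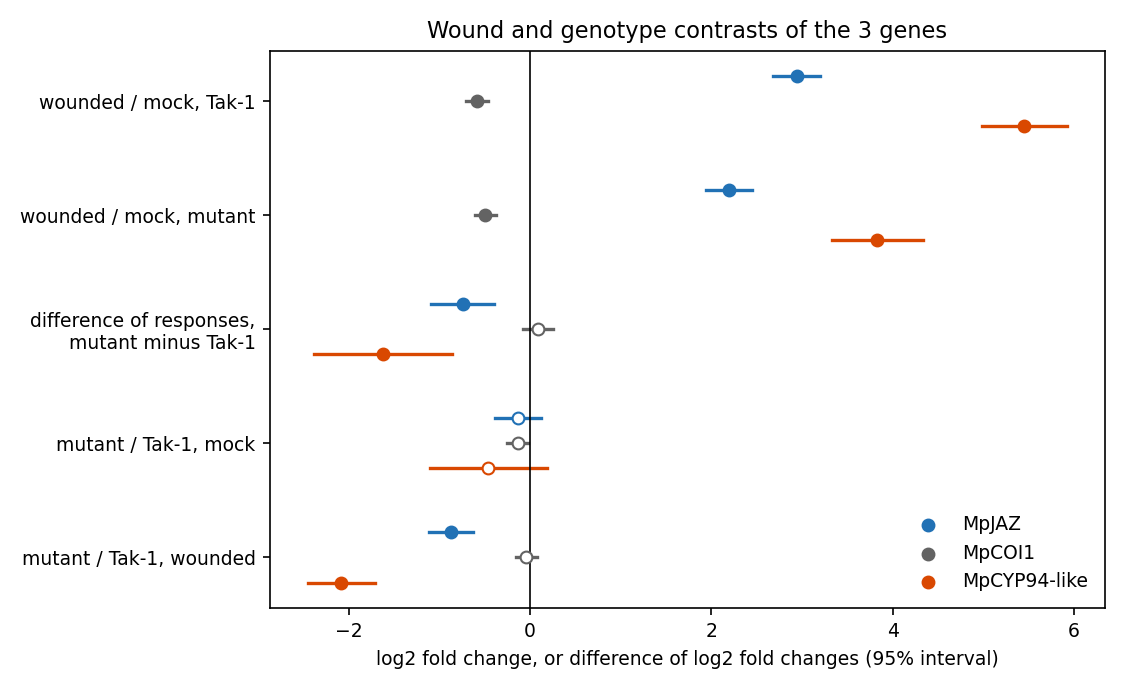
Log2 fold change or log2 difference of MpJAZ, MpCOI1 and MpCYP94-like in the 5 comparisons, with 95% intervals from the edgeR fit over 12 libraries; filled points have an adjusted p under 0.05. The responses of MpJAZ (2.94 in Tak-1, 2.20 in the mutant) and MpCYP94-like (5.45 and 3.83) lie apart between genotypes, and those of MpCOI1 (-0.58 and -0.49) lie close together.

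Ratios of counts within a library need no scaling between libraries. They are not corrected for gene length, so a ratio can be compared between libraries but not read as relative abundance of the transcripts. Per 100 MpCOI1 counts, the Tak-1 mock libraries held 24.3, 24.8 and 28.7 MpJAZ counts and the mutant mock libraries 26.0, 25.7 and 26.4. The wounded Tak-1 libraries held 290, 324 and 279 and the wounded mutant libraries 149, 158 and 194. MpJAZ thus had fewer counts than MpCOI1 in every mock library and more in every wounded library, and the wounded mutant libraries were all below those of wounded Tak-1.

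Mean MpJAZ counts per 100 MpCOI1 counts were 167 ± 23.8 in the wounded mutant and 298 ± 23.5 in wounded Tak-1 (SD, n = 3), a ratio of 0.559. The two-sided exact permutation p was 0.1, the smallest that 3 libraries against 3 allow, and 0.2 after adjustment over 4 such tests. In mock the means were 26.0 ± 0.351 and 25.9 ± 2.41 (exact permutation p = 1.0, n = 3).

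Per 100 MpJAZ counts, wounded Tak-1 libraries 1, 2 and 3 held 16.0, 14.5 and 19.7 MpCYP94-like counts, and wounded mutant libraries 1, A and B held 8.39, 6.34 and 6.84. Every wounded mutant library was below every wounded Tak-1 library. The means were 7.19 ± 1.07 and 16.7 ± 2.68, a ratio of 0.43 (exact permutation p = 0.1, n = 3, adjusted 0.2). In mock they were 2.34 ± 0.942 and 2.98 ± 0.807 (exact permutation p = 0.5, n = 3, adjusted 0.667), and the libraries overlapped.

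**Figure D3:**
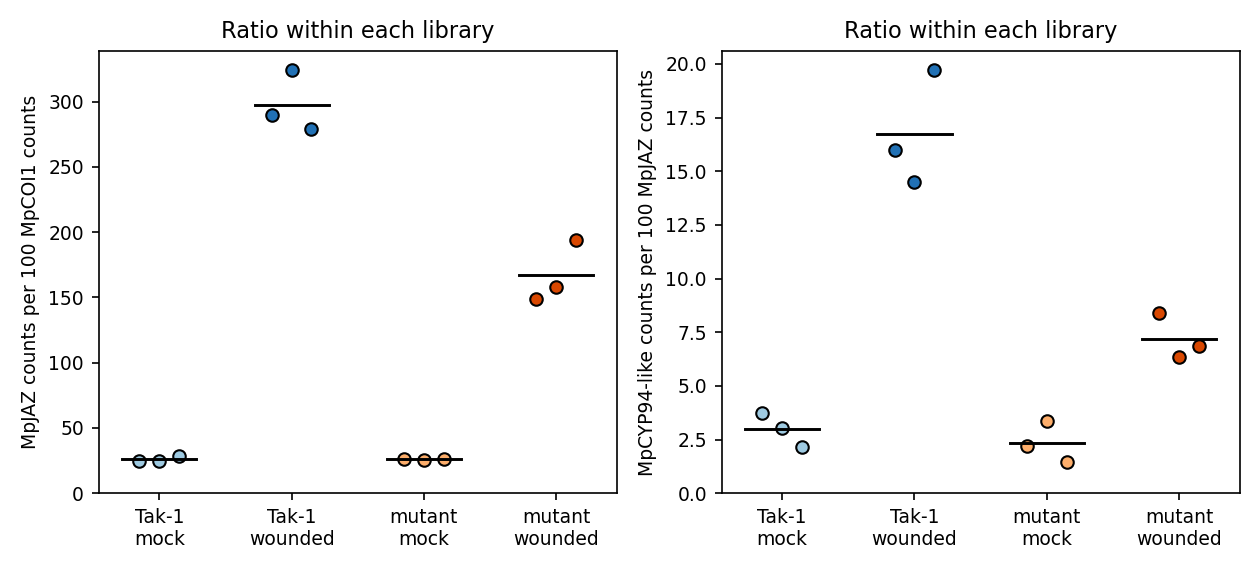
MpJAZ counts per 100 MpCOI1 counts and MpCYP94-like counts per 100 MpJAZ counts in each library, by group; horizontal lines are group means. Wounded mutant libraries lie at 149 to 194 and 6.34 to 8.39, below wounded Tak-1 libraries at 279 to 324 and 14.5 to 19.7.

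Other genes of the pathway, and genes of families that also act on other hormones such as auxin, were found by symbol. A signalling list held MpJAZ, MpCOI1, the adaptor gene MpNINJA, the corepressor gene MpTPL, and MpTIR1. MpTIR1 encodes the auxin receptor, an F-box protein related to COI1. MpMYCX (MpUg00430), the only MYC symbol, also matched. It was not in the count table, which held 0 identifiers of the female MpUg series. So 5 genes were tested, and no gene with a MYC symbol was assessed. In Tak-1, 3 of 5 were called higher and 2 lower on wounding, and in the mutant 2 were higher, 2 lower and 1 not called, beside 54.9% and 51.1% of all tested genes called in either direction. The median log2 fold changes of the list were 0.15 and -0.07, beside 0.01 and 0.02 over all tested genes.

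MpTPL fell from 175 to 114 CPM in Tak-1 (log2 fold change -0.62) and from 171 to 113 CPM in the mutant (-0.60), with a difference of responses of 0.02 (adjusted p = 0.951). MpNINJA rose from 111 to 140 CPM in Tak-1 (log2 fold change 0.34, adjusted p = 1.17e-04) and from 102 to 123 CPM in the mutant (0.26, adjusted p = 0.00102). With upper-quartile scaling the rise of MpNINJA in the mutant was no longer called (0.12, adjusted p = 0.0636). In Tak-1, MpTIR1 was at 179 CPM in mock and 199 CPM after wounding (log2 fold change 0.15, adjusted p = 0.0319), a call lost on leaving out Tak-1 mock library 2 or 3 or wounded Tak-1 library 1 or 3, and turned to -0.04 by upper-quartile scaling. In the mutant MpTIR1 was at 174 and 165 CPM (-0.07, adjusted p = 0.293). Of the 5 signalling genes, 1, MpJAZ, was called in the difference of responses, beside 3.29% of all tested genes. This count fell to 0 where the MpJAZ call was lost. After wounding 3 of the 5 were lower in the mutant, beside 9.51% of all tested genes: MpJAZ, MpTIR1 (-0.27, adjusted p = 0.00601) and MpNINJA (-0.19, adjusted p = 0.0281). The MpNINJA call was lost without any 1 wounded Tak-1 library or without wounded mutant library 1 or A. Its adjusted p ran from 0.0255 to 0.106 with each of the 12 libraries left out. With upper-quartile scaling this call was lost too (-0.135, adjusted p = 0.0993).

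A turnover list held MpCYP94-like, the second CYP94 gene MpCYP94L1, MpGH3A and MpGH3B, whose family joins amino acids to hormones such as jasmonate and auxin in Arabidopsis, and MpILR, whose family releases hormones from such conjugates in Arabidopsis. In each genotype 3 of 5 were called higher on wounding, 1 lower and 1 was not called. Over all tested genes, 30.0% were called higher and 25.0% lower in Tak-1, and 28.6% and 22.6% in the mutant. The median log2 fold changes were 2.99 in Tak-1 and 2.14 in the mutant, and 1.31 and 0.90 without MpCYP94-like. In the difference of responses 3 of 5 were called, all negative, beside 3.29% of all tested genes, and the median was -0.74 beside 0.00 over all tested genes. The count fell to 1 on leaving out library 3 of mock Tak-1 or library 1 or 2 of the mock mutant. It also fell to 1 without library 1 of the wounded mutant. With all libraries but without MpCYP94-like, 2 of 4 genes were called in the difference, and the median was -0.35.

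MpCYP94L1 went from a mean of 6.49 to 51.3 CPM in Tak-1 (log2 fold change 2.99, adjusted p = 1.12e-09) and from 6.85 to 32.6 CPM in the mutant (2.25, adjusted p = 1.81e-08). Both CYP94 genes thus rose in both genotypes. The responses of MpCYP94L1 differed by -0.74 ± 0.18 SE (adjusted p = 0.0429), a call that was lost on leaving out any 1 of 9 of the 12 libraries, with adjusted p from 0.0226 to 0.112. The call was kept only without Tak-1 mock library 1, wounded Tak-1 library 3 or wounded mutant library B. After wounding MpCYP94L1 was lower in the mutant by a log2 difference of -0.65 (adjusted p = 0.00239).

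MpGH3A went from 41.2 to 437 CPM in Tak-1 (log2 fold change 3.41) and from 31.4 to 138 CPM in the mutant (2.14). Its difference of responses, -1.27 ± 0.18 SE (adjusted p = 0.0023), was called with each of the 12 libraries left out in turn. MpILR moved the other way, falling from 53.0 to 27.6 CPM in Tak-1 (-0.94) and from 60.5 to 34.6 CPM in the mutant (-0.80), with a difference of 0.14 (adjusted p = 0.689). MpGH3B, at 5.55 to 7.27 CPM over the group means, was not called in either wound comparison.

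A synthesis list held lipoxygenases and CYP74 enzymes, which open the oxylipin pathway that leads to jasmonates. Of 17 tested members, 8 were called higher and 3 lower in Tak-1, and 9 higher and 3 lower in the mutant, beside 54.9% and 51.1% of all tested genes called in either direction. The median log2 fold changes were 0.79 and 0.99. MpLOX1 rose alike in both, by 4.29 in Tak-1 and 4.27 in the mutant (difference -0.01, adjusted p = 0.994). MpLOX6, at a mean of 0.222 CPM in mutant mock, rose by 1.87 in Tak-1 and 3.61 in the mutant. Its difference of 1.74 was not called (adjusted p = 0.278). In the difference of responses, where 3.29% of all tested genes were called, 4 of 17 were called, all negative: MpLOX2 (-0.92, adjusted p = 0.00408), MpLOX4 (-1.57, adjusted p = 0.0429), MpLOX14 (-1.0, adjusted p = 0.00183) and MpCYP74N2 (-0.96, adjusted p = 0.00681). The MpLOX4 call was lost without any 1 of 9 libraries and kept without Tak-1 mock library 3, wounded Tak-1 library 1 or wounded mutant library B (adjusted p 0.023 to 0.109). MpLOX2, MpLOX4 and MpCYP74N2 had risen in both genotypes, as MpJAZ had, whereas MpLOX14 was at 588 CPM in mock Tak-1 and 504 CPM in the wounded plants, and fell from 492 to 211 CPM in the mutant.

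Set among the 89 tested genes with a P450 symbol, MpCYP94-like was one of 25 called higher in Tak-1, where 25 were lower and 39 not called. In the mutant 30 P450 genes were higher, 22 lower and 37 not called. Over all tested genes 54.9% were called in Tak-1 and 51.1% in the mutant, so the share of P450 genes called was near that of all genes. The medians were -0.09 in both. Of the 89, 7 were called in the difference of responses, beside 3.29% of all tested genes, all negative: MpCYP94-like, MpCYP94L1, MpCYP74N2, MpCYP97A35 (-0.99), MpCYP823A1 (-0.99), MpCYP710A16 (-0.84) and MpCYP829H1 (-0.58). MpCYP94-like had the most negative value of these. The count of 7 fell to 3 on leaving out library 3 of mock Tak-1 or library 2 of the mock mutant and to 4 without library 1 of wounded Tak-1 or of the wounded mutant, and DESeq2 called 11. MpCYP815A1 had a larger fitted wound response than MpCYP94-like (log2 fold change 6.53 in Tak-1 and 6.59 in the mutant), and MpCYP707A, of the family that hydroxylates abscisic acid, rose by 3.62 and 5.20.

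**Figure D4:**
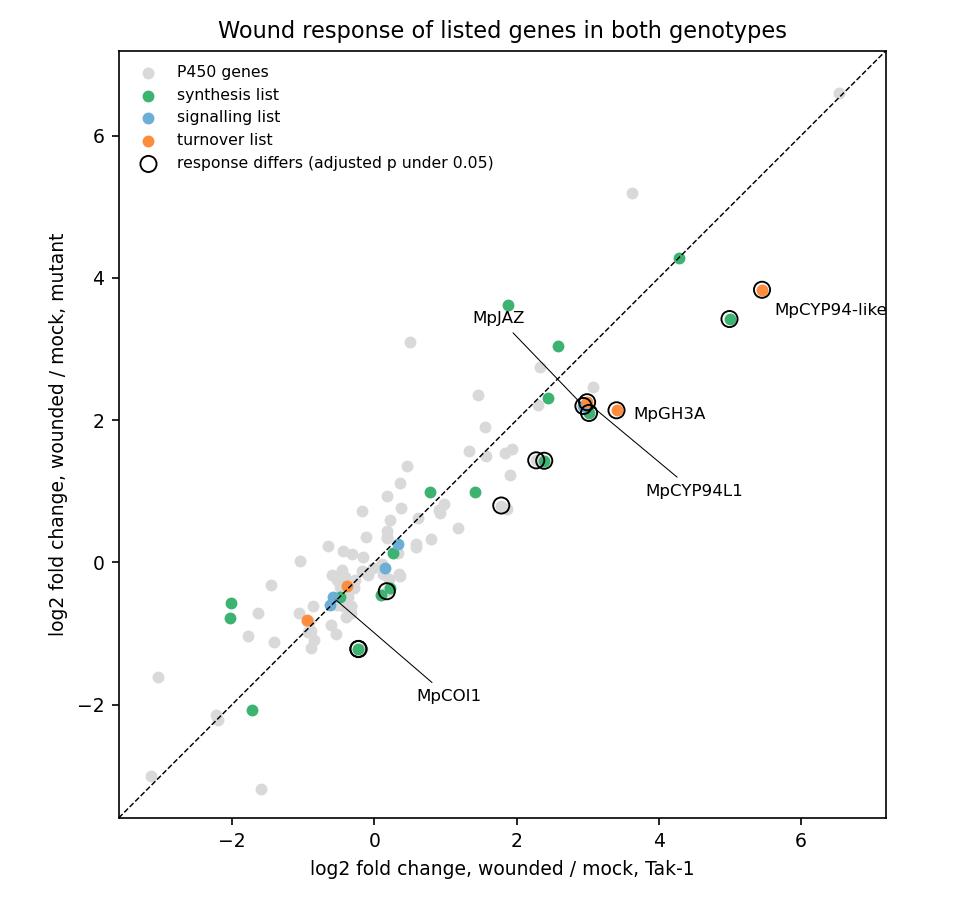
Log2 fold change on wounding in the mutant (vertical) against Tak-1 (horizontal) for tested genes of the P450, synthesis, signalling and turnover lists; the dashed line marks equal responses and rings mark genes called in the difference of responses. MpJAZ (2.94, 2.20), MpCYP94-like (5.45, 3.83), MpCYP94L1 (2.99, 2.25) and MpGH3A (3.41, 2.14) lie under the line, and MpCOI1 (-0.58, -0.49) lies close to it.

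The genes whose level followed each of the 3 most closely were taken as those with the highest Pearson correlation of log2 CPM over the 12 libraries, which share the 4 groups. This is a description, since any gene with a like response to wounding reaches a high value: 1277 tested genes had r of at least 0.95 with MpJAZ, 200 with MpCOI1 and 929 with MpCYP94-like. Closest to MpJAZ were MpERF15 (r = 0.998), which encodes an ERF-type transcription factor, Mp1g04360, MpPP2C_G, of the protein phosphatase family that its symbol names, Mp5g01430 and Mp8g01160. MpERF15 went from 6.69 to 155 CPM in Tak-1 and from 5.61 to 59.3 CPM in the mutant, and MpPP2C_G from 69.4 to 501 CPM and from 70.6 to 308 CPM. MpCYP94-like followed MpJAZ at r = 0.987 and was gene 250 in that order.

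Closest to MpCYP94-like were Mp3g10600 (r = 0.994), MpGT77.1, Mp5g12260, Mp1g10760 and Mp2g05910. Mp2g05910 went from 26.1 to 588 CPM in Tak-1 and from 16.6 to 185 CPM in the mutant. Closest to MpCOI1 were Mp8g05750 (r = 0.987), Mp7g08530, Mp6g03710, Mp1g02700 and Mp6g12300. All 5 fell on wounding in both genotypes, for example Mp8g05750 from 87.1 to 41.0 CPM in Tak-1 and from 73.5 to 37.3 CPM in the mutant. By Spearman's rank correlation 0 of the 5 closest genes were shared with the Pearson order for any of the 3, so the names depend on the measure of likeness.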

How the data were processed

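The authors deposited raw gene counts, 1 column per library. Trim Galore, HISAT2, HTSeq and edgeR are named without versions in the submitters' processing notes. The genome build, the annotation and whether counting used strand: not given in the sources used here. Therefore reads of antisense partners cannot be told apart. Of the 12 columns, 2 share a header and were used as members of their group only. Identifiers were matched to the gene table of assembly MpTak2_v7.1 for names and gene order: 17641 of 20574 matched and 3091 have a symbol.

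Counts were filtered (filterByExpr), scaled by TMM and fitted over all 12 libraries with edgeR 4.0.16 in R 4.3.3 (quasi-likelihood test, 8 residual degrees of freedom). All 5 contrasts were two-sided and calls were made where p, adjusted by Benjamini and Hochberg's method over all 13726 genes, was under 0.05. Adjusted p-values are edgeR's unless DESeq2 1.42.0 is named. The method was tested on simulated data. Poisson intervals of summed counts and floors cover counting error only and leave out the variation between independent pools. PCR copies of a molecule are counted along with it.

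The genes and lists were chosen with earlier results of these data known. The genes named are the 3 genes, the 5 most like each, the nearest gene on each side, and every gene of the signalling and turnover lists. Every CYP94 gene is in the turnover list. From the synthesis and P450 lists came the genes called in the difference, plus up to 3 called genes with the largest change in each wound contrast. Tissue markers and the desaturase genes of the labels were added. From the GH3 symbols, 22 that are numbered like glycoside hydrolase families were left out after the symbols were seen. The table had no symbol for AOS, AOC, OPR, TIFY, MED25, SKP1 or CUL1. Sequences were not analysed here. Alternatives were other scalings, DESeq2, no filter, fits to the compared groups, each library left out, the unnumbered libraries left out and a replicate block.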

Additional observations from a re-analysis of the deposited data

Results flagged for a closer look

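The wound responses of the following genes differed between the genotypes by the test of the difference itself, mutant minus Tak-1 on the log2 scale, in the edgeR fit. MpJAZ differed by -0.74 and MpCYP94-like by -1.62 (adjusted p = 0.0257 for each). In the turnover and synthesis lists, MpGH3A differed by -1.27, MpCYP94L1 by -0.74, MpLOX2 by -0.92, MpLOX4 by -1.57, MpLOX14 by -1.0 and MpCYP74N2 by -0.96. Among other P450 genes, MpCYP97A35 differed by -0.99 (adjusted p = 0.00174), MpCYP823A1 by -0.99 (0.0153), MpCYP710A16 by -0.84 (0.0267) and MpCYP829H1 by -0.58 (0.0348). With each library left out in turn, the call was lost in 8 of 12 cases for MpCYP829H1, in 4 for MpCYP710A16 and in 1, without wounded mutant library 1, for MpCYP823A1.

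Among the genes that followed MpJAZ most closely, Mp1g04360 differed by -0.55 (adjusted p = 0.0359), MpPP2C_G by -0.72 (0.00211) and Mp5g01430 by -0.75 (0.0162). Among those that followed MpCYP94-like, Mp3g10600 differed by -1.12 (0.00167), Mp1g10760 by -0.46 (0.0134) and Mp2g05910 by -1.02 (0.0197). Not called were MpERF15 (-1.12, adjusted p = 0.0558), the closest to MpJAZ, and Mp8g01160 (-0.52, 0.0631). Nor were MpGT77.1 (-0.41, 0.0605) and Mp5g12260 (-1.31, 0.0913), which followed MpCYP94-like. The call for Mp1g04360 was lost in 8 of 12 cases, and those for Mp5g01430 and Mp2g05910 without wounded mutant library 1. These genes were chosen for a like pattern, so their direction is not independent of that of the gene they follow. MpFAD5, a gene named in the growth protocol for the mutant, differed by -0.49 (adjusted p = 0.0422). Its level was higher in the mutant in mock plants (log2 difference 0.46, adjusted p = 0.0133), and no difference was called after wounding (-0.03, adjusted p = 0.833).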

How the results depend on the processing

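Of 282 alternatives for MpJAZ, MpCOI1 and MpCYP94-like, 271 kept the direction and the side of the threshold. With each library left out in turn, the difference of responses ran from -0.89 to -0.65 for MpJAZ (adjusted p 0.00271 to 0.072) and from -1.88 to -1.30 for MpCYP94-like (0.014 to 0.0905); the cause of the lost calls, beyond fewer samples, was not tested. For MpCYP94-like it was -1.60 (adjusted p = 0.0696) without the unnumbered libraries. DESeq2 gave -0.75 (0.000847) for MpJAZ and -1.62 (0.000344) for MpCYP94-like. Upper-quartile scaling turned the MpCOI1 difference after wounding to 0.016. It moved the median of all genes on wounding to -0.19 in Tak-1 and -0.12 in the mutant and the calls, higher and lower, from 4112 and 3427 to 3122 and 5504 in Tak-1, from 3919 and 3100 to 3180 and 4595 in the mutant, from 691 and 1305 to 1263 and 1151 between wounded plants, and from 95 and 356 to 164 and 293 in the difference. It also turned MpTIR1 in Tak-1 to -0.041. With a library left out MpTPL's difference ran from -0.025 to 0.052 and MpGH3B's from -0.16 to 0.21, and MpGH3B's was -0.27 without the unnumbered libraries. Deviations from the group mean correlated at r -0.141 to 0.19 over 12 pairs of same-numbered libraries, 3 of them over 0.1. Over 24 other pairs r ran from -0.245 to 0.296, and 2 of 10 libraries were closest to their own number. Deviations from a mean of 3 libraries cancel out within the group, so these values cannot exclude pairing. The labels state no block, so the numbers were not taken as pairing. With a replicate block on the 10 numbered libraries, MpJAZ differed by -0.91 (adjusted p = 0.0314), MpCYP94-like by -1.59 (0.136) and MpGH3B by -0.38, and 219 genes were called in the difference, against 262 in the same libraries without the block and 451 in all. DESeq2 called 799 there and 1056 in mock, where edgeR called 620, and 239 with only the compared groups. With a library left out the calls ran from 262 to 491 in the difference, from 139 to 730 in mock and from 1158 to 2296 in wounded plants (1996 with all). By Spearman's correlation 0 of the 5 genes most like MpJAZ, 0 of those most like MpCOI1 and 0 of those most like MpCYP94-like were shared with the Pearson order. Of 376 counts of list genes, 38 moved by over 1.5 times. With 9 to 23 counts per mock library, depth limits MpCYP94-like in mock.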

Other observations

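The nearest annotated genes on each side were read as a further description. Next to MpCOI1, Mp2g26570 was at group means of 22.9, 20.9, 22.1 and 20.4 CPM in Tak-1 mock, Tak-1 wounded, mutant mock and mutant wounded, and no wound contrast was called. Mp2g26600, on its other side, was at 54.9, 48.6, 51.8 and 57.6 CPM and was higher in the wounded mutant than in wounded Tak-1 by a log2 difference of 0.24 (adjusted p = 0.0399). Next to MpCYP94-like, Mp2g10320 was at 0.194, 0.621, 0.208 and 0.77 CPM and Mp2g10340 at 2.59, 1.47, 2.62 and 1.61 CPM, and neither was called on wounding. Next to MpJAZ, Mp6g06240 had 0 counts in all mock libraries and was at 0.429 to 1.33 CPM in wounded Tak-1 and 0.438 to 0.503 CPM in the wounded mutant. Its rise, at these low levels, was called in Tak-1 (edgeR adjusted p = 0.000351) and in the mutant (0.00164). Mp6g06210 had at most 4 counts in a library and was not tested.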
